A study of Mus musculus with 23 samples.

Results

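The open chromatin of 3T3-L1 cells was followed at 10 genes known for keeping preadipocytes undifferentiated or for marking them, through the ATAC-seq peaks in and around each gene. They are the secreted or surface proteins Dlk1, Wnt5a and Pdgfrb and the nuclear factors Gata2, Hes1, Id2, Id3, Twist1, Tcf7l2 and Zfp521. The members were taken by name from the column in which the authors gave a peak its gene, and that column held 11026, 8998 and 9366 different genes on days -2, -1 and 0. All 10 members had such a named peak on day -2. On day -1 it was 8, without Gata2 and Wnt5a, and on day 0 it was 8, without Dlk1 and Gata2. The named peaks numbered 12, 8 and 8. Peaks with no gene name inside a member or within 10 kb of it were added by position, which gave 86, 30 and 39 member peaks of 84019, 31970 and 37054 peaks in all.

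ATAC-seq reads open chromatin through a transposase that cuts and tags exposed DNA. The 3T3-L1 line is an established mouse line of preadipocytes. All cells were transfected on the differentiation day before the first sampling, while sub-confluent, with 50 nM siRNA and Lipofectamine RNAiMAX. The control arm received a non-targeting siRNA, called scramble, and the other arm siRNA against Kdm5c, a demethylase of histone H3 lysine 4. Nuclei were taken 24 hours later (day -2), 48 hours later (day -1) or 72 hours later (day 0), before any differentiation step the labels name. There were 4 libraries in each arm and day, and 3 with Kdm5c siRNA on day 0, numbered 1, 2 and 4. The comparisons ask how peaks at these genes differ between arms on each day, how they differ between days within an arm, and whether the siRNA effect differs between days.

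Preadipocytes are held back from becoming fat cells by signals and factors that have to be lowered before the fat programme starts. Dlk1 (Pref-1) and Wnt5a act at or outside the cell surface, Tcf7l2 carries Wnt signals to DNA, Hes1 is a repressor downstream of Notch, and Gata2 restrains the adipogenic factors directly. Id2 and Id3 bind basic helix-loop-helix proteins and keep them off DNA, Twist1 is itself such a protein of the mesenchyme, Zfp521 opposes the commitment factor Zfp423, and Pdgfrb marks precursor cells of the vessel wall and stroma.

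Separate cultures are not named in the labels, and the p-values below therefore measure only how far these libraries spread, a spread that may be technical. Counts in peaks were 4474964 to 14913397 per library, of which mitochondrial peaks held 56.4% to 93.2%, leaving 781309 to 3345583 nuclear counts. On day -2 the mitochondrial share was 56.4% to 70.0% with Kdm5c siRNA and 70.4% to 76.3% with scramble. It was 87.6% to 92.6% against 90.9% to 93.2% on day -1 and 78.8% to 86.8% against 87.5% to 91.4% on day 0. The arms overlapped in this share on day -1 only. Nuclear counts were lowest on day -1, at 781309 to 1446979. Of 12 preadipocyte or fibroblast markers, 9, 7 and 7 had a named peak on days -2, -1 and 0, against 2, 0 and 1 of 8 adipocyte markers. Endothelial markers had 2, 1 and 1 of 5, macrophage markers 1, 0 and 0 of 5, muscle markers 3, 0 and 0 of 5 and epithelial markers 1, 0 and 0 of 4. The preadipocyte markers Cd34, Pdgfra and Fn1 had no named peak on any day. The peak at Kdm5c itself had log2 fold changes of -0.28, 0.10 and 0.14 (SE 0.21, 0.25 and 0.24) on the 3 days, and as DNA it does not check a knockdown of the transcript. In bulk nuclei, fewer cells with an open region and less opening per cell cannot be told apart.

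The RefSeq promoter table of GRCm38.p6, which takes 250 bases before to 50 bases after each start, held 8 windows for 6 members, 2 each for Gata2 and Tcf7l2. Of these 8 windows, 6, 5 and 5 were touched by a peak on days -2, -1 and 0, against 38.5%, 32.9% and 34.3% of all 32851 windows. The members were taken from genes with a named peak, and all windows were not. A higher share at the members was therefore partly fixed by that choice and is not a result about them. Windows of 5 members are shown because the results turn on where the peak lies against the start: inside the peak for Twist1, Id2 and Tcf7l2, inside it only on day -2 for the first Gata2 window, and outside it for Dlk1. Each is read 5′ to 3′ along the gene's strand, with every CG dinucleotide in capitals. The Twist1 window is chr12:33957421-33957720 (strand +), the Id2 window chr12:25096043-25096342 (strand -) and the Tcf7l2 window chr19:55741560-55741859 (strand +). The Gata2 windows are chr6:88193641-88193940 and chr6:88198414-88198713 (strand +), and the Dlk1 window is chr12:109452573-109452872 (strand +).
Twist1: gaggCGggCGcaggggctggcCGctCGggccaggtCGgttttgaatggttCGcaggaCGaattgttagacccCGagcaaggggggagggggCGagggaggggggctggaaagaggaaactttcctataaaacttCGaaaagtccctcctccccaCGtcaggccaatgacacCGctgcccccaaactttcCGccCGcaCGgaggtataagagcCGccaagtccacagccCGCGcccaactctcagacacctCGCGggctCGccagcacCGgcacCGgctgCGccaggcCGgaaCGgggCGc
Id2: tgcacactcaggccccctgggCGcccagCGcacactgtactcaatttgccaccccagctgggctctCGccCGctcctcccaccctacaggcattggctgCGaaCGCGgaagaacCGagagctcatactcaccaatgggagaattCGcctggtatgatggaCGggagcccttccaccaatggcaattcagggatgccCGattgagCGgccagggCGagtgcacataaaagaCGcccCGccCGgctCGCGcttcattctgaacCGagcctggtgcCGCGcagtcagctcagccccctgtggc
Tcf7l2: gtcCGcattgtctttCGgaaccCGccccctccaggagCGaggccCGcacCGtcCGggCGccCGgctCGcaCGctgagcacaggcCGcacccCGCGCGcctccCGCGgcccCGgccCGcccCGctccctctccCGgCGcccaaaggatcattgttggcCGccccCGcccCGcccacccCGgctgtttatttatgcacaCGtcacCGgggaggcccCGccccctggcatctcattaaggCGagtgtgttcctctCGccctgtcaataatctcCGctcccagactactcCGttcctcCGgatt
Gata2, first start: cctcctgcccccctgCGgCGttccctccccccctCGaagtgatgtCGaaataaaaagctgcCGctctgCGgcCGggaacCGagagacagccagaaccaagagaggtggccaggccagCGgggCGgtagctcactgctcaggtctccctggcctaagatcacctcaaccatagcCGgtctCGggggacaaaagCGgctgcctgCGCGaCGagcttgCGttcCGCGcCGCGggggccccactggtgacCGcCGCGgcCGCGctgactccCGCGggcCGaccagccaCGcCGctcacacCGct
Gata2, second start: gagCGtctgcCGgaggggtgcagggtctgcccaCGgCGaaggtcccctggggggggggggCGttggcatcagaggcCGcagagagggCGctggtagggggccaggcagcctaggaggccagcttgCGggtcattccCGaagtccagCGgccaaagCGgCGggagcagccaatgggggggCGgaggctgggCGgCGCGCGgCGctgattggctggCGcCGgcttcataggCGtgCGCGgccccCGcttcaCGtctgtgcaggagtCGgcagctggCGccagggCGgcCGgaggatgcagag
Dlk1: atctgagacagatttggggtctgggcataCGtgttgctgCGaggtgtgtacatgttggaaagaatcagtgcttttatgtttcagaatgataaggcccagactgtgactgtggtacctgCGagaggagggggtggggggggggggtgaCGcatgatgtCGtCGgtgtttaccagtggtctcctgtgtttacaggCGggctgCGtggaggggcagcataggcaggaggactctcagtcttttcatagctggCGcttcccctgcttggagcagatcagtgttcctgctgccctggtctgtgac

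The windows differed in CG content. Twist1 had 27 CG dinucleotides, Id2 21, Tcf7l2 34 and the Gata2 starts 32 and 29, against a median of 7 over all windows. Dlk1 had 9, close to that median, and no peak touched its window on any day. The other Tcf7l2 window, inside the gene, had 7 and was touched by no peak either. On either strand, GGGCGG was found once in the Twist1, Id2 and first Gata2 windows, 3 times in the second Gata2 window, 6 times in that of Tcf7l2 and not in that of Dlk1, and 35.7% of all windows held it. CCAAT was found 3 times in the Id2 window, 2 times in the second Gata2 window and once in that of Twist1 (37.4% of all windows). TATAAA was found once each in the Twist1 window and the second Tcf7l2 window (13.6% of all). CANNTG, which reads as the same pattern on both strands, was found once each in the Id2 and second Gata2 windows (72.3% of all). None of these 4 patterns was found in the Dlk1 window.

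The authors' gene name did not stay with the same piece of DNA across days. At Id2 the peak over the start, chr12:25095902-25096513 on day -2 and chr12:25095862-25096471 on day 0, carried no name, and the name sat on a peak of 188 or 185 bp that lay 1559 or 1630 bp upstream of the gene. On day -1 the name sat on the start peak, chr12:25095959-25096644. Gata2 kept a peak over its second start on all 3 days, but only the peak at the first start, chr6:88193663-88193953, present on day -2, was named. The Dlk1 peak lost its name on day 0 while a peak remained at the same place. The named Id2, Gata2 and Dlk1 values are therefore described below together with the unnamed peaks at those genes.

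**Figure D1:**
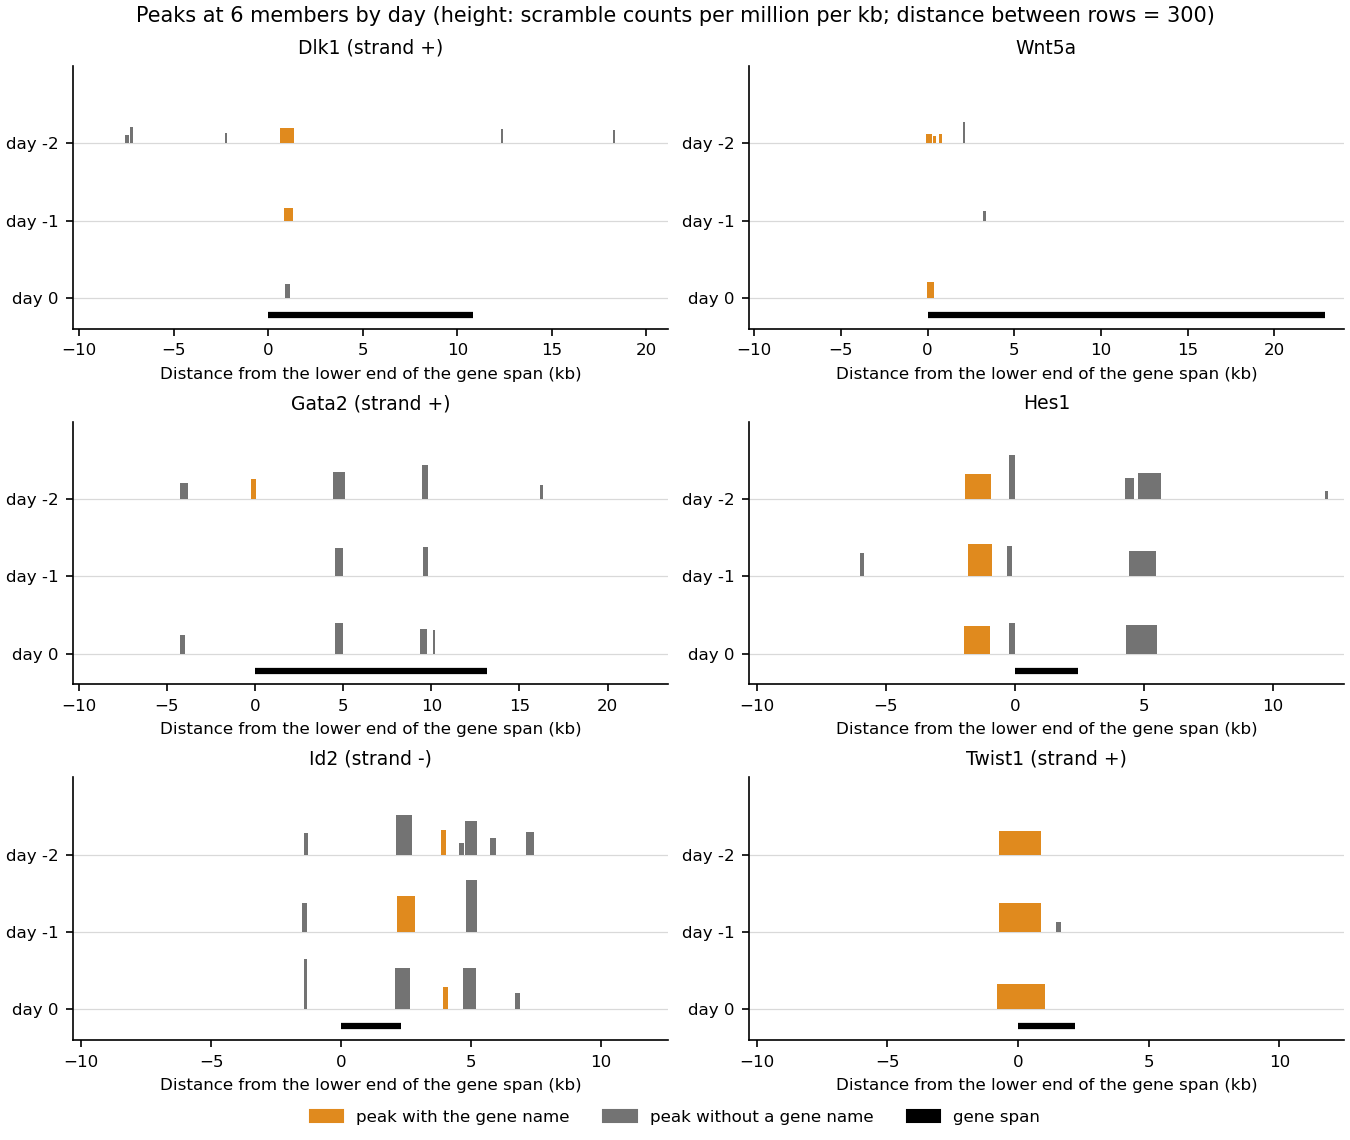
Position and height of peaks at 6 members on each day. The x axis is the distance in kb from the lower end of the gene span (black bar), bar width is peak width to scale, and bar height is the mean scramble level in CPM per kb, with 300 between day rows. Orange bars carry the gene's name and grey bars carry none; the orange bar of Id2 moves between days, and the Dlk1 bar narrows from 736 to 257 bp.

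No member peak passed the test between Kdm5c siRNA and scramble on any day. Of the 12, 8 and 8 named peaks, 10, 8 and 8 passed the count filter and were tested, and 0 were called, where called means an adjusted p under 0.05 in edgeR's quasi-likelihood test over all peaks of the day. Over all tested peaks the share called was 0.00404% on day -2 (2 of 49455), 0% on day -1 (0 of 23304) and 0.00352% on day 0 (1 of 28398). On day -1, 1253 peaks had an unadjusted p under 0.05 in edgeR and 870 in DESeq2, which also called 0. With unnamed peaks included, 59, 23 and 30 member peaks were tested and 0 were called, and 3, 0 and 0 of them had an unadjusted p under 0.05. The median log2 fold change of the tested member peaks was 0.06, -0.02 and 0.08, against 0.00, -0.00 and -0.01 over all tested peaks.

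Of the tested named peaks, 0 of 10, 0 of 8 and 2 of 8 kept scramble and Kdm5c siRNA libraries fully apart on days -2, -1 and 0. The same held for 2.87%, 3.27% and 6.22% of all tested peaks. The 2 peaks were those of Hes1 and Pdgfrb, described with the genes below.

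**Figure D2:**
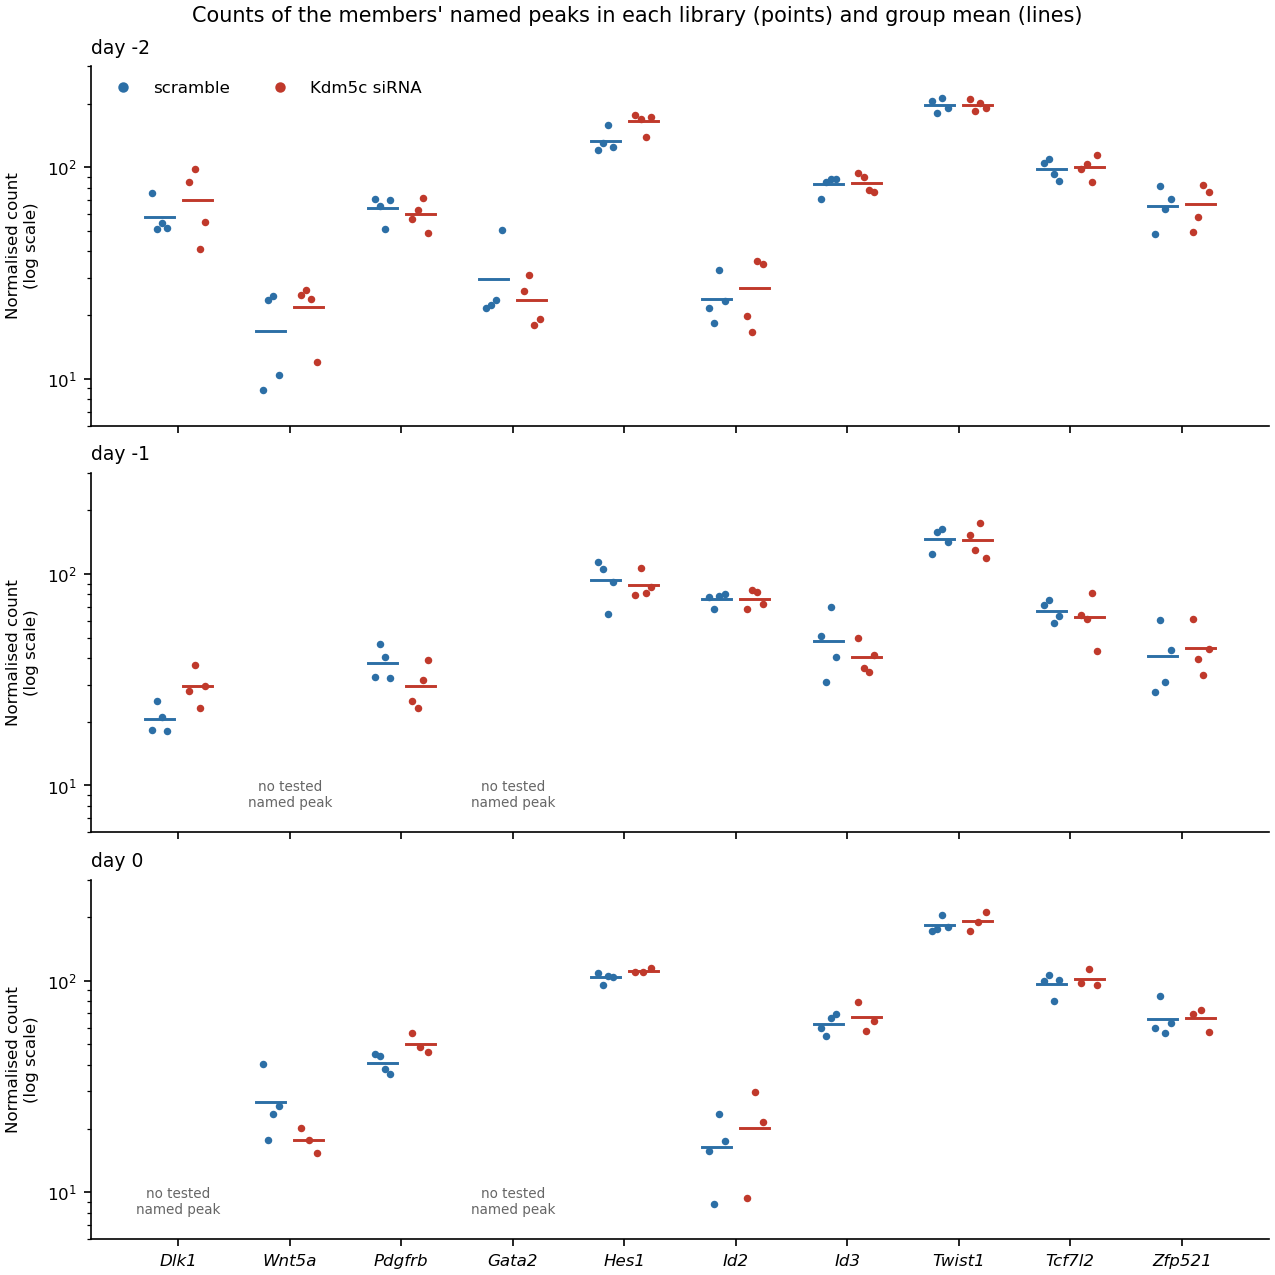
Normalised counts (log axis) of each tested named peak in every library, by day. Blue points are scramble libraries and red points Kdm5c siRNA libraries, and lines are group means. The Twist1 and Hes1 peaks hold the most counts and the points of both arms interleave at most genes; Id2 is low on days -2 and 0, when its name sits on the small upstream peak.

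Dlk1, a surface protein with EGF-like repeats that is shed to keep preadipocytes from maturing, had 1 peak in its gene on every day, starting 640 to 908 bp inside the span. Normalised counts, which are raw counts divided by the relative library size of the day, were 75.9, 51.2, 54.3 and 51.5 in the scramble libraries on day -2 and 85.5, 98.1, 40.9 and 55.1 with Kdm5c siRNA. On day -1 they were 18.2, 25.1, 21.0 and 18.2 against 28.0, 37.1, 23.3 and 29.7. The Kdm5c siRNA mean was the higher on both days and the arms overlapped on both. The log2 fold change was 0.28 (SE 0.20) on day -2 and 0.51 (SE 0.29) on day -1, with edgeR adjusted p-values of 0.98 and 0.93. On day 0, where the peak has no name, counts were 10.1, 7.71, 16.0 and 21.5 with scramble and 14.7, 18.6 and 17.6 with Kdm5c siRNA, or 0.33 on the log2 scale (SE 0.46) with an edgeR adjusted p of 0.97. The sign was positive on all 3 days, and none of the 3 differences exceeded what the edgeR test allows for the spread of the libraries.

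Wnt5a, a secreted Wnt ligand that mostly signals without beta-catenin, had low counts throughout. Its named peak over the span start, chr14:28504479-28504826, held 8.86, 23.6, 24.7 and 10.5 normalised counts with scramble and 24.8, 26.4, 23.7 and 11.97 with Kdm5c siRNA on day -2. On day 0, at chr14:28504514-28504931, the values were 40.5, 17.6, 23.3 and 25.5 against 20.1, 17.7 and 15.4. The log2 fold change was 0.39 (SE 0.39) on the first day and -0.62 (SE 0.36) on the last, with adjusted p-values of 0.98 and 0.87 in edgeR. The highest scramble library of day 0 stood well above the other 3, and the arms overlapped on both days. The other 2 named Wnt5a peaks of day -2 did not pass the count filter, with means of 6.16 and 9.70 counts in scramble cells. On day -1 no peak lay at the span start, and 1 unnamed peak inside the gene had a mean of 6.01.

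Pdgfrb, the receptor for PDGF-B on mural and stromal precursors, had a named peak over its span start on every day, chr18:61044798-61045375 on day -2. Its normalised counts with scramble were 70.8, 65.6, 51.3 and 70.0 on day -2 and 32.6, 46.5, 40.6 and 32.1 on day -1, against 57.0, 62.6, 71.2 and 49.1 and against 25.0, 23.2, 31.4 and 39.1 with Kdm5c siRNA. On day 0 scramble libraries had 45.0, 44.0, 38.1 and 36.2, and Kdm5c siRNA libraries 56.3, 48.4 and 46.1. All 3 Kdm5c siRNA libraries of day 0 thus lay above all 4 scramble libraries, while the arms overlapped on the other days. The log2 fold changes were -0.09, -0.33 and 0.28 (SE 0.20, 0.25 and 0.24), and edgeR gave day 0 an adjusted p of 0.93.

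Gata2, a zinc-finger factor expressed in preadipocytes and not in fat cells, had its named peak at the first start only on day -2. Counts there were 21.5, 22.3, 23.7 and 50.7 with scramble and 26.0, 30.9, 18.0 and 19.2 with Kdm5c siRNA, which makes -0.36 on the log2 scale (SE 0.31) with an adjusted p of 0.98 in edgeR. A single scramble library, replicate 4, stood apart there. The unnamed peak over the second start held more, with means of 94.9 ± 16.6 (SD, n = 4) against 92.9 ± 22.8 (n = 4) on day -2, 38.6 ± 13.8 against 40.6 ± 7.35 (n = 4 each) on day -1 and 52.4 ± 10.2 (n = 4) against 43.1 ± 9.36 (n = 3) on day 0, scramble first. Its log2 fold changes were -0.01, 0.10 and -0.23 (SE 0.17, 0.24 and 0.23). The unnamed peak 9469 bp into the gene on day -2 and its counterparts on the later days also overlapped between arms.

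Hes1 had 5, 4 and 3 peaks on days -2, -1 and 0. On every day they included the named peak before the span start, chr16:30063434-30064451 on day -2, a narrow unnamed peak at or just before the start, and a wide unnamed one past the gene's end. At the named peak, scramble libraries held 120.2, 129.9, 158.8 and 124.7 normalised counts on day -2 and Kdm5c siRNA libraries 177.2, 169.0, 138.3 and 173.6. The log2 fold change of 0.29 (SE 0.15) had an unadjusted p of 0.044, the lowest among the named peaks, and an edgeR adjusted p of 0.98. Scaling by total counts alone gave 0.75 with an adjusted p of 0.033, when the median over all peaks was itself 0.44. On day -1 the difference had the other sign, at -0.11 (SE 0.16), and on day 0 it was 0.11 (SE 0.16). On day 0 the 3 Kdm5c siRNA libraries, at 109.9, 109.8 and 114.3, lay just above the 4 scramble libraries, at 109.0, 95.8, 105.6 and 104.6. The start peak of Hes1 had log2 fold changes of -0.36, 0.67 and 0.33 (SE 0.24, 0.34 and 0.29), and the one past the end had -0.03, -0.09 and -0.05.

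Id2 and Id3 are inhibitors that pair with E proteins without binding DNA. At the Id2 start the counts were 124.4 ± 20.1 with scramble and 107.5 ± 17.3 with Kdm5c siRNA (SD, n = 4 each) on day -2, 76.0 ± 5.51 and 76.5 ± 7.45 (n = 4 each) on day -1, and 97.9 ± 12.8 (n = 4) and 116.0 ± 22.996 (n = 3) on day 0. The log2 fold changes were -0.22, 0.01 and 0.21 (SE 0.16, 0.17 and 0.16). The small upstream peak that carried the Id2 name on days -2 and 0 had 0.14 (SE 0.32) and 0.36 (SE 0.40) from means of 23.9 and 16.3 scramble counts. The Id3 start peak, chr4:136143472-136144246 on day -2, had 0.02, -0.22 and 0.09 (SE 0.17, 0.22 and 0.20). The arms overlapped at each of these peaks on each day.

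Twist1, Tcf7l2 and Zfp521 had named peaks over the gene start on every day and gave differences between -0.13 and 0.11. The Twist1 peak, chr12:33956926-33958561 on day -2, is 1635, 1602 and 1844 bp wide and covers the whole promoter window shown above. Its normalised counts with scramble were 206.2, 179.7, 213.1 and 189.8 (day -2), then 124.6, 157.2, 162.3 and 142.1 (day -1) and then 171.9, 175.0, 203.9 and 178.4 (day 0). With Kdm5c siRNA they were 209.5, 184.8, 202.1 and 190.4, then 153.2, 129.9, 175.0 and 118.7, then 171.5, 189.7 and 211.5. The libraries of the arms interleaved on each day, and the log2 fold changes were -0.01, -0.02 and 0.08 (SE 0.14 each). Tcf7l2 had 0.03, -0.13 and 0.07 (SE 0.16, 0.18 and 0.17) and Zfp521 0.02, 0.11 and -0.01 (SE 0.19, 0.23 and 0.20).

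**Figure D3:**
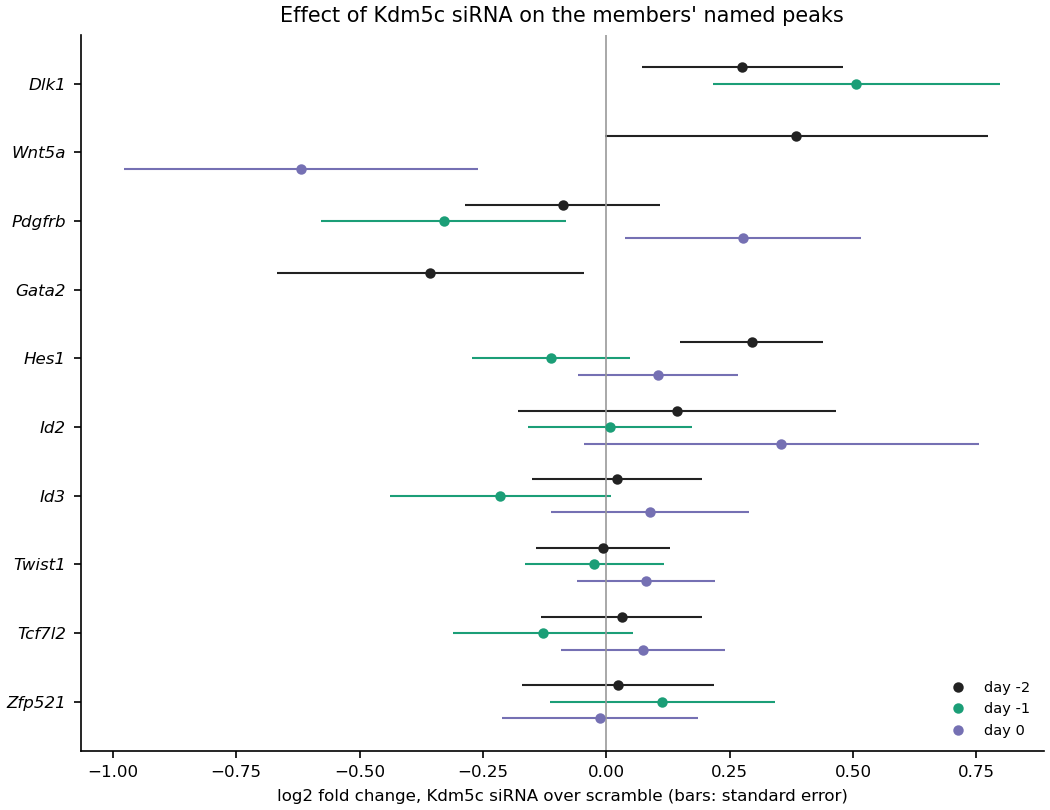
Log2 fold change of Kdm5c siRNA over scramble with its standard error for each tested named peak and day. Points right of 0 are higher with Kdm5c siRNA; the values run from -0.62 (Wnt5a, day 0) to 0.51 (Dlk1, day -1), and no point passed the edgeR test over all peaks.

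Tcf7l2 spans 191863 bp and had 36, 8 and 12 peaks, of which 18, 4 and 7 were tested. One unnamed peak far inside the gene, chr19:55876636-55876994 on day -2, had opposite signs on the first and last day. With scramble it held 50.6, 39.4, 49.3 and 41.0 normalised counts on day -2 and with Kdm5c siRNA 35.9, 24.9, 25.4 and 39.5. On day 0 the values were 28.1, 26.4, 23.3 and 42.9 against 44.2, 47.4 and 35.7. Scramble was the higher on average on day -2 and Kdm5c siRNA on day 0, and the arms overlapped on all 3 days. The log2 fold changes were -0.55 (SE 0.26), 0.24 (SE 0.28) and 0.48 (SE 0.27) on days -2, -1 and 0, with edgeR adjusted p-values of 0.98, 0.97 and 0.86.

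Whether the siRNA effect differed between days was tested as an interaction at 13654 peaks that could be matched on all 3 days by a reciprocal overlap of at least 50%. Of these, 0% were called for day -1 against day -2, 0% for day 0 against day -1 and 0% for day 0 against day -2, while an unadjusted p under 0.05 was found at 675, 713 and 877. DESeq2 also called 0 in each, and its unadjusted p was under 0.05 at 646, 671 and 811. The 12 matched member peaks were among those not called. The largest member value belonged to the Tcf7l2 peak inside the gene, at 1.00 (SE 0.37) between days 0 and -2, with an edgeR adjusted p of 0.68 and a range of 0.51 to 0.97 over the alternatives. The Hes1 named peak had -0.42 (SE 0.20) between days -1 and -2, with an adjusted p of 0.96.

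Levels per kb put the members in an order that the spread mostly blurred. In CPM (counts scaled to a common library total) per kb of the named peak, scramble cells of day -2 had 124.1 ± 13.3 (SD, n = 4) at Tcf7l2, 98.8 ± 10.8 at Hes1, 95.9 ± 23.02 at the small Id2 peak, 91.0 ± 7.16 at Twist1 and 84.5 ± 13.6 at Pdgfrb. Lower came Id3 at 80.8 ± 7.14, Gata2 at 77.2 ± 38.3, Zfp521 at 68.9 ± 14.0, Dlk1 at 59.8 ± 13.2 and Wnt5a at 36.4 ± 17.4. The libraries of each neighbouring pair in that order overlapped on days -2 and -1. On day 0, Tcf7l2, at 133.6 to 181.1, lay above Id3, at 98.0 to 121.0, and each other neighbouring pair overlapped. Among the named peaks Tcf7l2 was first on all 3 days, while Wnt5a was last on the 2 days on which it was named and Dlk1 last on day -1. Unnamed peaks were left out of this order. In scramble counts per kb, the unnamed Id2 start peak had 203.6 on day -2, above the named Tcf7l2 peak at 164.4. On day 0 it had 160.8 against 163.5.

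Against all peaks with a gene name, the members' densities spread widely. The Tcf7l2 peak stood at the 94.5th, 94.7th and 96.2nd percentile of scramble counts per kb on days -2, -1 and 0. Wnt5a stood at the 11.7th percentile on day -2 and the 29.2nd on day 0, and Dlk1 at the 45.9th on day -2 and the 10.9th on day -1. Twist1 stood at the percentiles 81.3, 81.6 and 72.1 in density and at the 98.3rd, 99.1st and 99.5th percentile in width.

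Between days, the members had fewer peaks on the later days, in shares near those of all peaks. Their 86 peaks of day -2 compare with 30 on day -1 and 39 on day 0, which is 34.9% and 45.4% of the first number, against 38.1% and 44.1% for all peaks. Tcf7l2 accounts for much of it, going from 36 peaks to 8 and 12. Nuclear counts per library ranged from 1816082 to 3345583 (day -2), from 781309 to 1446979 (day -1) and from 1088968 to 2525925 (day 0), and the peak set of each day was deposited separately. The part of depth in these numbers was not tested.

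In scramble cells, 2 of the 12 matched member peaks were called between day 0 and day -2, both higher on day 0, against 21% of all 13573 matched peaks tested. None of the 12 was called between day -1 and day -2 (6.32% of all) or between day 0 and day -1 (7.14% of all), and 4 and 1 of the 12 had an unadjusted p under 0.05 there. DESeq2 called 0 of the 12 in the first of these and 0 in the second. The median log2 fold change between day 0 and day -2 was 0.04 over the 12 and 0.02 over all.

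With Kdm5c siRNA, 4 of the 12 were called between day 0 and day -2, 3 higher and 1 lower, against 14.8% of all 13631 tested. Again 0 were called between day -1 and day -2 (6.19% of all) and between day 0 and day -1 (3.65% of all), while the unadjusted p was under 0.05 for 4 and 2 of them, and DESeq2 called 0 in both. The median between day 0 and day -2 was 0.29 over the 12 and 0.00 over all. The 2 arms' day changes come from different libraries, and the interaction above is the test of their difference.

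The peak past the end of Hes1 rose in both arms. On the CPM scale, scramble libraries had 62.6, 95.4, 95.7 and 104.4 (day -2), then 93.7, 103.8, 106.2 and 109.2 (day -1) and then 117.1, 125.9, 128.6 and 160.6 (day 0). Kdm5c siRNA libraries had 73.6, 86.6, 93.7 and 99.5, then 92.4, 93.5, 97.7 and 103.1, then 114.1, 124.0 and 150.2. Every library of day 0 lay above every library of the earlier days in its arm. The log2 fold change between day 0 and day -2 was 0.59 (SE 0.15, edgeR adjusted p = 0.0010) with scramble and 0.53 (SE 0.15, adjusted p = 0.0082) with Kdm5c siRNA. Without Kdm5c siRNA day 0 replicate 1 the latter was no longer called (adjusted p = 0.083).

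The outline of that Hes1 peak differed between days. On day -2 the region holds 2 peaks, of which the larger, 896 bp, was matched, and on days -1 and 0 it is 1 peak of 1049 and 1200 bp. With the counts of the joined region summed, which covers 1253 bp on day -2, the log2 fold change was 0.26 (edgeR adjusted p = 0.15) with scramble and 0.22 (adjusted p = 0.28) with Kdm5c siRNA. With the width as an offset it was 0.17 and 0.11. The call was lost in both arms under either setting, and the part of the outline in the rise was not tested. The named Hes1 peak before the start, 1017, 942 and 972 bp wide, had 0.03 (SE 0.15) and -0.19 (SE 0.14) over the same days.

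At Id2 a different peak passed in each arm. The start peak had 0.44 (SE 0.16, edgeR adjusted p = 0.041) between day 0 and day -2 with Kdm5c siRNA and 0.05 (SE 0.15) with scramble. Its CPM with Kdm5c siRNA were 69.8, 77.3, 83.2 and 97.5 (day -2), then 84.9, 90.4, 101.5 and 103.6 (day -1) and then 91.9, 112.3 and 138.3 (day 0). The lowest library of day 0 fell within the range of day -2. Widths were 611, 685 and 609 bp, and summing the joined region kept the call, at 0.53 (adjusted p = 0.010). The call was lost with DESeq2 (adjusted p = 0.077), with the width offset (0.057), and without any 1 of 5 of the 7 libraries. The difference between arms in this change, 0.40 (SE 0.22), had an adjusted p of 0.78.

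The other Id2 peak, chr12:25098569-25099024, 2477 bp upstream of the gene, had 0.48 (SE 0.17, edgeR adjusted p = 0.032) with scramble and 0.23 (SE 0.18) with Kdm5c siRNA. Scramble libraries held 52.7, 55.5, 65.3 and 65.4 CPM (day -2), then 60.9, 86.8, 93.6 and 98.6 (day -1) and then 76.9, 77.4, 84.0 and 93.9 (day 0). All libraries of day 0 lay above those of day -2. This Id2 peak was 455, 420 and 524 bp wide on days -2, -1 and 0, and its joined region covers 643 bp on day -2. The call was lost with the joined region (0.37, edgeR adjusted p = 0.082) and with the width offset (0.28). It was also lost without scramble day -2 replicates 2 or 4 or day 0 replicates 2 or 3, left out 1 at a time. The difference between arms in this change, -0.25 (SE 0.25), had an edgeR adjusted p of 0.90.

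Gata2's second start had the 1 lower call. With Kdm5c siRNA the peak held 55.1, 57.3, 75.5 and 97.7 CPM (day -2), then 42.5, 43.4, 56.1 and 60.1 (day -1) and then 33.2, 42.5 and 51.4 (day 0). It fell by 0.72 on the log2 scale (SE 0.21, edgeR adjusted p = 0.012), and all libraries of day 0 lay below those of day -2. With scramble the change was -0.46 (SE 0.20, adjusted p = 0.082), from 71.4 ± 10.8 to 51.9 ± 9.68 (SD, n = 4 each). The peak was 670, 429 and 443 bp wide, and with the width as an offset the values were -0.12 with Kdm5c siRNA and 0.14 with scramble. Summed over the joined region it was still called, at -0.64 (adjusted p = 0.020). Without Kdm5c siRNA day -2 replicate 2, or day 0 replicate 1 or 2, the call was lost. Per kb of Gata2 peak, Kdm5c siRNA cells had 106.6 ± 29.6 (SD, n = 4), 117.8 ± 20.8 (n = 4) and 95.7 ± 20.5 (n = 3) CPM over the 3 days, and scramble cells 106.5 ± 16.1, 111.4 ± 39.6 and 117.2 ± 21.9 (n = 4 each). The part of the narrower outline in the lower count was not tested.

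The Tcf7l2 peak inside the gene was the fourth call with Kdm5c siRNA. Its CPM were 18.7, 19.8, 27.7 and 29.8 (day -2), then 31.6, 34.5, 38.8 and 41.2 (day -1) and then 35.1, 43.9 and 46.2 (day 0), without overlap between day -2 and either later day. The log2 fold change between day 0 and day -2 was 0.81 (SE 0.27, edgeR adjusted p = 0.032), against -0.19 (SE 0.26) with scramble. The outline widened from 358 to 477 and 491 bp, and with that width as an offset the value was 0.35 (adjusted p = 0.48). It was not called without Kdm5c siRNA day -2 replicate 2 or 3, or day 0 replicate 1 or 2.

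The Tcf7l2 start and Twist1 came close to the threshold in both arms. The Tcf7l2 start had 0.39 (SE 0.16, edgeR adjusted p = 0.068) with scramble and 0.40 (SE 0.17, adjusted p = 0.097) with Kdm5c siRNA between day 0 and day -2, and its widths of 597, 539 and 592 bp left the values at 0.40 and 0.41 with the offset. Twist1 had 0.28 (SE 0.12, adjusted p = 0.095) and 0.34 (SE 0.13, adjusted p = 0.068), with all libraries of day 0 above those of day -2 in each arm. Both were called in both arms when counts were summed over joined regions, a setting chosen after seeing the data. Over the same days that setting called 6046 regions with scramble and 4727 with Kdm5c siRNA, of 20217 joined regions before the count filter. Id3, Pdgfrb and the named Zfp521 peak had values between -0.26 and 0.40 in the 2 arms, and none was called. The second matched Gata2 peak had -0.22 and -0.37, not called either. Its Kdm5c siRNA libraries of day 0, at 32.6 to 40.0 CPM, lay below those of day -2, at 43.8 to 50.7. With scramble, day -1 (26.3 to 34.7) lay below day -2 (37.1 to 47.7) and day 0 overlapped. The Tcf7l2 start with Kdm5c siRNA kept day 0 (94.1 to 110.4) above day -2 (62.7 to 85.7). The share of all matched peaks that keep 2 days apart was not worked out, so these separations have no background.

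**Figure D4:**
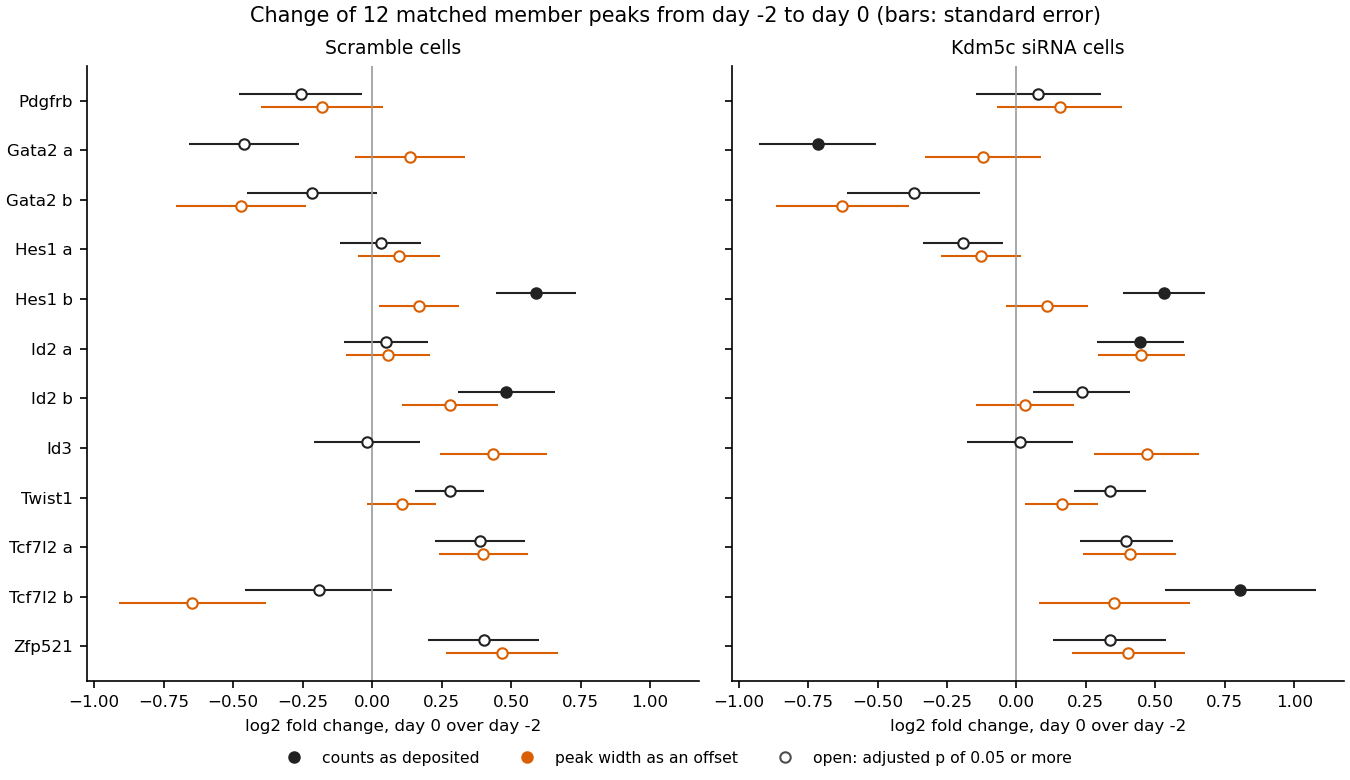
Log2 fold change of day 0 over day -2 with its standard error for the 12 matched member peaks, in scramble cells (left) and Kdm5c siRNA cells (right). Black uses the counts as deposited and orange adds the peak width as an offset; filled points have an adjusted p under 0.05 in edgeR, and a and b number the peaks of a gene by position. The 6 filled points are all black: Hes1 b in both arms, Id2 b with scramble, and Gata2 a, Id2 a and Tcf7l2 b with Kdm5c siRNA.

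Zfp521 also had 2 unnamed peaks inside the gene that could be followed only by joining peaks over any overlap, a setting chosen after seeing the data. The numbers of all joined regions called, given above, are the background for these peaks and for Dlk1 below. At chr18:13970007-13970788 on day -2 the counts fell by 1.14 (SE 0.34, edgeR adjusted p = 0.0058) with scramble between day 0 and day -2. With Kdm5c siRNA they fell by 1.28 (SE 0.33, adjusted p = 0.0022), and the peak went from 781 to 218 and 213 bp. With the covered width as an offset the values at this Zfp521 peak had the other sign, 0.72 and 0.59, and were not called. Between day -1 and day -2 it had -0.65 (edgeR adjusted p = 0.19) with scramble and -0.91 (adjusted p = 0.034) with Kdm5c siRNA. With the offset these became 1.18 (adjusted p = 0.0078) and 0.93 (adjusted p = 0.029), both called with the other sign. At chr18:13895020-13895227 the change between day 0 and day -2 was 1.00 (SE 0.43, adjusted p = 0.069) with scramble. With Kdm5c siRNA it was 1.82 (SE 0.43, adjusted p = 0.0010), while the peak went from 207 to 187 and 475 bp. With the offset these values were -0.19 and 0.63, not called, and the difference between arms without it, 0.83 (SE 0.63), had an adjusted p of 0.86. Among the other peaks followed in this way, 1 call between day 0 and day -2 appeared with the offset alone. It was at the Id2 peak chr12:25092358-25092544 with scramble (1.34, SE 0.38, adjusted p = 0.0061).

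Dlk1 had no partner peak at 50% overlap, because its peak shrank from 736 bp on day -2 to 518 and 257 bp. Joined over any overlap, its counts fell by 1.62 (SE 0.31, edgeR adjusted p = 7.5e-06) with scramble on the log2 scale between day 0 and day -2, and with Kdm5c siRNA they fell by 1.59 (SE 0.29, adjusted p = 1.6e-05). With the covered width as an offset the values were -0.11 (SE 0.32) and -0.07 (SE 0.29), neither called. Per kb of peak, scramble cells had 59.8 ± 13.2, 49.4 ± 7.97 and 53.1 ± 23.2 CPM on days -2, -1 and 0 (SD, n = 4 each), and Kdm5c siRNA cells 73.2 ± 29.8 (n = 4), 70.9 ± 13.8 (n = 4) and 64.9 ± 7.10 (n = 3). The length that the peak caller marked at Dlk1 became shorter while the density within it overlapped between days. Signal outside the called outline was not analysed here, so whether the lower count is less opening or a narrower call cannot be told apart.

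Genes that act with the members were taken from a list of 26, among them Notch pathway genes, Wnt receptors and the other Id and Twist family genes. A named peak was present for 19, 18 and 17 of them, and of the 18, 17 and 17 tested between arms 0 were called. Their median log2 fold change was 0.04, 0.09 and -0.05. Hey1, a Notch target like Hes1, had the values -0.03, 0.52 and 0.39 (SE 0.17, 0.22 and 0.20) on days -2, -1 and 0. For the last 2 days edgeR gave adjusted p-values of 0.86 and 0.83. Id1 had 2 named peaks on day 0: the peak of 297 bp had 0.77 (SE 0.36, edgeR adjusted p = 0.82) and that of 441 bp 0.42 (SE 0.24, adjusted p = 0.86). Its 2 named peaks had 0.35 and 0.01 (SE 0.22 and 0.18) on day -2. On day -1 they had 0.18 and -0.01 (SE 0.27 and 0.24).

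Of 14 partner peaks matched across days, 2 were called higher and 1 lower between day 0 and day -2 with scramble, against 21% of all matched peaks, and 0 with Kdm5c siRNA, against 14.8%. The interaction called 0 of the 14, and for the 3 called with scramble its adjusted p was 0.87 (Adam17), 0.76 (Tcf7l1) and 0.87 (Id1). Adam17, a protease that cleaves Notch and sheds Dlk1, had 0.49 (SE 0.14, edgeR adjusted p = 0.0043) with widths of 1006, 987 and 1039 bp. Tcf7l1, a repressor relative of Tcf7l2, had 0.32 (SE 0.12, adjusted p = 0.044). The larger Id1 peak fell by 0.65 (SE 0.21, adjusted p = 0.018) as its peak went from 707 to 422 and 441 bp. Between day -1 and day -2, Twist2, the paralog of Twist1, fell by 0.71 (SE 0.18, adjusted p = 0.0055) with scramble and by 0.68 (SE 0.17, adjusted p = 0.0074) with Kdm5c siRNA, and its peak from 1602 to 811 bp. Tcf7l1 was the other call there with scramble, at 0.38 (SE 0.12, edgeR adjusted p = 0.038). Id4 was the call between day 0 and day -1, at 0.82 (SE 0.24, adjusted p = 0.020). On days -2, -1 and 0 the Tcf7l1 peak was 1293, 1542 and 1245 bp wide and the Id4 peak 723, 405 and 728 bp. The part of the outline in these partner changes was not tested. All matched peaks were called at 6.32% with scramble and 6.19% with Kdm5c siRNA between day -1 and day -2. Between day 0 and day -1 it was 7.14% and 3.65%. With Kdm5c siRNA, Tcf7l1 had 0.25 and Id4 0.42 in those comparisons, not called, and the interactions had adjusted p-values of 0.99 and 0.96.

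A wider list of 27 genes that restrain or accompany adipogenesis had named peaks for 21, 17 and 19, and 0 of the 19, 17 and 18 tested were called between arms. Their medians were 0.01, 0.03 and -0.04. Of 16 matched peaks, those of Bhlhe40, a circadian repressor, and Tgfbr1, a TGF-beta receptor, were higher on day 0 than on day -2 with scramble, at 0.31 (SE 0.11, edgeR adjusted p = 0.031) and 0.35 (SE 0.14, adjusted p = 0.049). With Kdm5c siRNA, Bhlhe40 had 0.25 and Tgfbr1 0.07, with interaction adjusted p-values of 0.98 and 0.84. Gli3, a Hedgehog pathway factor, was called with Kdm5c siRNA over the same days, at 0.48 (SE 0.14, adjusted p = 0.012), and had 0.33 (SE 0.14, adjusted p = 0.062) with scramble. Between day 0 and day -1, Gli3 was called in both arms, at 0.46 (SE 0.14, edgeR adjusted p = 0.029) with scramble and 0.48 (SE 0.14, adjusted p = 0.041) with Kdm5c siRNA. The Gli3 peak was 1493, 1203 and 1598 bp wide on days -2, -1 and 0, and the part of that width in its changes was not tested. Pparg, the master factor of fat cells, fell by 0.90 (SE 0.24, adjusted p = 0.014) between day -1 and day -2 with Kdm5c siRNA, with a peak of 871 and then 458 bp. With scramble Pparg had -0.66 (SE 0.24, adjusted p = 0.078), and the difference between arms, -0.23 (SE 0.35), had an adjusted p of 0.99. Of the 16, 2 with scramble and 1 with Kdm5c siRNA were called between day 0 and day -2, against 21% and 14.8% of all matched peaks. Between day 0 and day -1 it was 1 in each arm, against 7.14% and 3.65%. Between day -1 and day -2 it was 0 with scramble and 1 with Kdm5c siRNA, against 6.32% and 6.19%.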

How the data were processed

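ATAC-seq was measured in 23 libraries of 3T3-L1 cells in 6 groups. The authors deposited, for each day, raw counts per peak and a normalised signal per peak. Each signal value is the raw count divided by 1 constant per library, within a small tolerance. The submitters' processing notes name MACS2 2.1.1, HTSeq 0.9.1, cutadapt 2.3, DESeq2 1.24.0, Bowtie2 2.2.9 and the build GRCm38. Tool settings and the base of peak starts (0 or 1): not given in the sources used here. Coordinates are printed as deposited. Counts were tested with edgeR 4.0.16 in R 4.3.3 (quasi-likelihood test, TMM scaling, low counts filtered by filterByExpr, Benjamini-Hochberg adjustment over all peaks tested, threshold 0.05), separately for each day. Between days, peaks were matched 1 to 1 at a reciprocal overlap of at least 50% with bedtools 2.31.1, which left 13672 nuclear peaks. DESeq2 1.42.0 was an alternative. Tables used Python 3.11.15 with pandas 2.3.3, and plots matplotlib 3.10.9. Peaks within 10000 bp of a RefSeq gene span count as that gene's. The members and gene lists were chosen with earlier results of these data known. All members are named; partners are named by their role to a member and other genes where called, and the call of a partner or the siRNA values of Hey1 and Id1 were chosen for mention after being seen. No 2 libraries agreed within sampling noise (lowest chi-square per degree of freedom 2.05 over 33 pairs). Tested on simulated data, the arm comparison on days -2, -1 and 0 recovered 36%, 49% and 40% of 2-fold and 85%, 89% and 77% of 4-fold differences among 49455, 23304 and 28398 peaks. Other scaling, filters, overlaps, a width offset, a replicate block and left-out libraries were tried.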

Additional observations from a re-analysis of the deposited data

Results flagged for a closer look

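Among 44 groups of 4 libraries checked at the named peaks, 3 held a library whose gap to the nearest other was above Dixon's 95% critical value as a share of the group's range, and chance marks about 1 in 20 groups. Groups of 3 were not tested. All 3 were scramble groups of day -2. At the Dlk1 named peak, replicate 1 held 75.9 normalised counts and the other libraries 51.2 to 54.3, a gap of 0.875 of the range. At the Gata2 named peak, replicate 4 held 50.7 and the others 21.5 to 23.7 (0.926 of the range). At the Id3 named peak, replicate 1 held 70.8, below the others at 85.3 to 87.8 (0.851 of the range).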

How the results depend on the processing

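Between arms on day -2, where 2 peaks were called, RLE factors gave 1, total counts 1224, DESeq2 0, and leaving out mitochondrial peaks 1. On day -1 (0 called), total counts gave 1. On day 0 (1 called), RLE gave 2, total counts 0, no low-count filter 6, DESeq2 0 and no mitochondrial peaks 2. Total counts moved the median of all peaks to 0.44, 0.38 and 0.56 on days -2, -1 and 0. These totals include the mitochondrial peaks, whose share differed between arms as given above, and the part of that share was not tested. Leaving out 1 library gave 2 to 11 calls on day -2 and 0 to 10 on day 0. For day -1 against -2, day 0 against -1 and day 0 against -2, scramble cells had 858, 969 and 2850 calls. These became 72, 115 and 446 at 80% overlap, 1766, 2064 and 4974 at any overlap and 2389, 2725 and 6046 in joined regions. Kdm5c siRNA cells had 844, 497 and 2012, which became 64, 14 and 266, then 1768, 1386 and 3904, then 2445, 1799 and 4727. For day -1 against -2, a width offset gave 1436 with scramble, 2326 and 2409 (scramble, Kdm5c siRNA) at any overlap, and 3458 and 3257 in joined regions. With Kdm5c siRNA it gave 255 for day 0 against -1 and 1102 for day 0 against -2. Any overlap and joined regions were chosen after seeing the data. Leaving out 1 library gave 546 to 731, 636 to 985 and 2266 to 2533 with scramble, and 495 to 860, 231 to 387 and 1215 to 1779 with Kdm5c siRNA. For the difference of the siRNA effect (0 called), day 0 against -2 gave 1 with total counts and 1 at 80% overlap, and 0 to 7 without 1 library; day -1 against -2 gave 0 to 1.

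The split of calls into higher and lower moved with scaling. Scramble had 498 higher and 360 lower, 375 and 594, and 1300 and 1550 in the 3 day comparisons; total counts gave 328 and 570, 283 and 740, and 660 and 2077, and the width offset 1312 and 124, 204 and 546, and 1565 and 671. Kdm5c siRNA had 479 and 365, 194 and 303, and 994 and 1018; total counts gave 331 and 508, 169 and 333, and 680 and 1320, and the offset 1142 and 76, 61 and 194, and 882 and 220.

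Id3 turned direction. In scramble cells its day -1 against -2 value of -0.10 became 0.61 with the width offset, 0.64 with the offset at any overlap and 0.67 in joined regions with the offset. Its day 0 against -2 value of -0.02 became 0.52 in joined regions with the offset. The Id3 peak was 774, 473 and 564 bp wide on days -2, -1 and 0. The offset sets the counts against these widths, so the turn comes with the narrower outline of the later days. Why the outline was narrower was not tested.

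No clear pairing by replicate number was seen. Same-numbered libraries of the 2 arms had correlations from -0.04 to 0.16 (day -2), from -0.02 to 0.03 (day -1) and from -0.03 to -0.01 (day 0). Differently numbered ones had -0.16 to 0.12, -0.03 to 0.03 and -0.01 to 0.03. With 3 or 4 libraries per group, these values cannot exclude a pairing. A replicate block gave 5, 1 and 0 calls between arms, 806, 952 and 2760 between days with scramble, 930, 447 and 1939 with Kdm5c siRNA, and 0 for each difference of the siRNA effect.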
